A study of Homo sapiens with 4 samples.

Results

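NFE2L2, which encodes the transcription factor NRF2, and 8 of its antioxidant target genes were followed in BT-474 breast cancer cells that overexpressed neuropilin-1 (NRP-1). The targets were NQO1, HMOX1, GCLC, GCLM, SRXN1, TXNRD1, TXN and PGD. They were selected by name and matched by NCBI Gene ID, and these 9 were among 18882 genes with a value in at least 1 library. All 9 were listed in every library and all 9 passed the filter on low counts.

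NRF2 is held in the cytoplasm and marked for degradation by KEAP1, and electrophiles or oxidants release it. It then enters the nucleus, pairs with a small MAF protein and binds antioxidant response elements near genes for glutathione synthesis, thioredoxin reduction, quinone detoxification, heme breakdown and NADPH supply. Much of this control acts on the NRF2 protein, which RNA sequencing does not measure.

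The 4 libraries were poly(A) RNA sequencing libraries of BT-474, a HER2-positive human breast cancer line described as luminal B-like. The 2 control libraries, replicates 1 and 2, came from cells labelled wild-type. The 2 NRP-1 libraries, replicates 2 and 3, came from BT-474 cells stably transfected with NRP-1 cDNA in the pPTuner IRES2 plasmid. Colonies of these cells were isolated after Geneticin (G418) selection, and the number of clones was not given in the sources used here. Cells carrying the plasmid alone were not among the 4 libraries, so effects of NRP-1, the plasmid, the selection and the cloning cannot be told apart. No source used here said whether the replicates were separate cultures, so the p-values measured only the spread between these libraries.

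Each library held 8243595 to 8448926 estimated reads. NRP1 itself had 7 and 8 reads in control replicates 1 and 2 and 103 and 62 reads in NRP-1 replicates 2 and 3. This was a log2 fold change of 3.38 (SE 0.42, adjusted p = 0.044, edgeR quasi-likelihood test with Benjamini-Hochberg adjustment). Without the filter on low counts its adjusted p was 0.106, and it was 0.112 to 0.174 with limma on log2 FPKM. All 10 luminal markers examined exceeded 1 FPKM and summed to 4490 FPKM in control and 4820 to 5550 FPKM in NRP-1 cells. In CPM, KRT8, KRT18, KRT19, GATA3 and FOXA1 were above both controls in both NRP-1 libraries. EPCAM and CDH1 were below both controls in both, and for ERBB2, ESR1 and PGR the groups overlapped. In NRP-1 replicates 2 and 3, ESR1 had 273 and 735 reads and PGR 419 and 1138. The 5 basal markers summed to 1.19 to 1.91 FPKM in control and 1.94 to 3.6 FPKM in NRP-1 cells, with KRT14 at 0. Of 5 blood cell markers, CD3E and HBB were at 0 and PTPRC had 9 to 17 reads. The list summed to 19 to 22 FPKM in control and 7.24 to 7.57 FPKM in NRP-1 cells. Nearly all of it was CD68, which is also a lysosomal protein of other cells. CD68 was itself called lower, at a log2 fold change of -1.67 (adjusted p = 0.0423 in edgeR and 2.67e-06 in DESeq2). Its counts were not whole in any library, so its estimate is uncertain. Mesenchymal markers summed to 36.6 to 36.7 FPKM in control and 28.4 to 31.3 FPKM in NRP-1 cells, mainly COL1A1, with PDGFRB at 0. The part of these differences in the results was not tested. Spread within a group was wider for NRP-1, with a chi-square per degree of freedom over genes of 22.02, against 3.33 for the control pair.

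The antioxidant response element has the core letters TGACNNNGC, which read GCNNNGTCA on the opposite strand. These letters were searched on both strands in the 250 bases before each annotated start of transcription, in sequence from RefSeq (GRCh38.p14). Of the 9 genes, 8 were matched in the table, and HMOX1 was not. GCLM, TXNRD1 and PGD held the letters, and NFE2L2, NQO1, GCLC, SRXN1 and TXN did not in these windows. In the whole table, 13.2% of genes and 10.9% of windows held them, against 3 of these 8 genes. Of the tested genes in the table, 15.8% did. None of the 4 matches overlapped the AP-1 letters TGACTCA or TGAGTCA. The 4 windows are shown because they carry the motif through which NRF2 is known to act. Each is written 5′ to 3′ on the strand of the gene, capitals mark the core letters, and the last base adjoins the annotated start. They lie at chr1:93909431-93909680 on the minus strand (GCLM), chr12:104215529-104215778 and chr12:104286782-104287031 on the plus strand (TXNRD1, 2 starts) and chr1:10398814-10399063 on the plus strand (PGD).
GCLM: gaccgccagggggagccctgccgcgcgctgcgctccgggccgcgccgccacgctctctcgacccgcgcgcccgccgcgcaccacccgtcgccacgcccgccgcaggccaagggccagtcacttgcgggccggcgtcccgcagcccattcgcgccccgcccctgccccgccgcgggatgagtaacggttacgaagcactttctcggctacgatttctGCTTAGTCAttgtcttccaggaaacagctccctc
TXNRD1 start 1: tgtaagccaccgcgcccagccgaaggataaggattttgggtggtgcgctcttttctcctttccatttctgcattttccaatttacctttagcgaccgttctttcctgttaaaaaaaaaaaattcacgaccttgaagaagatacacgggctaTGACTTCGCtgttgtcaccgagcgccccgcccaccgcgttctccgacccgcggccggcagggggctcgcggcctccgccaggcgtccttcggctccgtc
TXNRD1 start 2: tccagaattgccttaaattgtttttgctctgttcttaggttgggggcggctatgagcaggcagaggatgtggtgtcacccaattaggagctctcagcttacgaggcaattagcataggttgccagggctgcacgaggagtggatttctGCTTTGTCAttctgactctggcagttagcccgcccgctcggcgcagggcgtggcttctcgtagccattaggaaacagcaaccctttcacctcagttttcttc
PGD: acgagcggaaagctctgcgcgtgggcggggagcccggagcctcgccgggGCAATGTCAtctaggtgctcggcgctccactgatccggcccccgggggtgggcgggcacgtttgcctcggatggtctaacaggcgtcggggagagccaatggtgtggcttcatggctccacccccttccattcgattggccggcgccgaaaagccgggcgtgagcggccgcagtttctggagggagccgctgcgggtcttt
The match lay 26 to 34 bases before the start in GCLM, 91 to 99 and 94 to 102 bases in the TXNRD1 windows, and 193 to 201 bases in PGD. A match of letters describes the sequence only, and binding was not measured.

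The 9 genes covered a wide range of levels. In FPKM, a length-corrected level, TXN (131, mean of 4 libraries) and NQO1 (115) were highest, and their ranges over libraries overlapped. PGD (78.9) lay below them, with a range apart from both neighbours. TXNRD1 (28.1), NFE2L2 (24.1) and SRXN1 (23.4) followed, and neighbours in this order overlapped. GCLC (14.1) stood apart, and GCLM (8.96) and HMOX1 (5.90) were lowest, with overlapping ranges. NFE2L2 was at the 82nd percentile of listed genes, TXN at the 98th and HMOX1 at the 53rd.

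**Figure D1:**
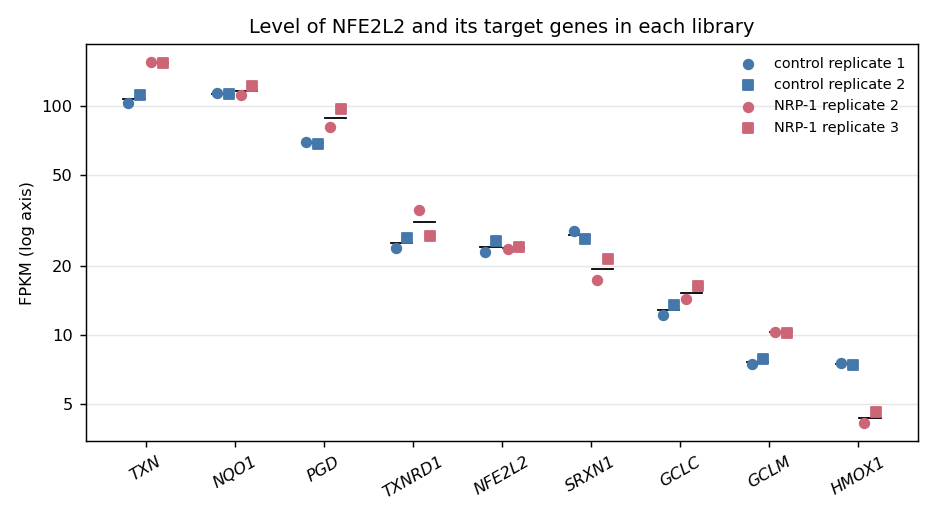
Level of NFE2L2 and its 8 target genes in FPKM on a log axis, with 1 point per library and a horizontal line at each group's mean (n = 2). TXN lies near 100 to 155 FPKM and HMOX1 between 4.11 and 7.52 FPKM, and the control and NRP-1 points overlap for NFE2L2 and NQO1.

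Whether NRP-1 overexpression was accompanied by a different level of NRF2 pathway RNA was asked by comparing the NRP-1 with the control libraries. NFE2L2 and NQO1 showed no detectable difference. TXN, GCLM, PGD, GCLC and TXNRD1 had higher counts relative to library size (CPM) in both NRP-1 libraries than in either control, at 1.16- to 1.41-fold control. For TXNRD1 this held only barely, with NRP-1 replicate 3 and control replicate 2 both at 107 CPM after rounding. HMOX1 and SRXN1 had fewer, at 0.571- and 0.691-fold control. None of the 9 differences passed the adjusted threshold of 0.05.

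By this threshold 0 of the 9 genes were called by edgeR, DESeq2 or limma, where edgeR called 1.09% of all 14298 genes tested, or 156 genes, with 0.413% higher and 0.678% lower. DESeq2 called 6.24% of these genes, and limma on log2(FPKM + 1) and log2(FPKM + 0.1) called 7 and 3 of 14574. At an unadjusted p under 0.05, edgeR counted 4 of 9, with TXN and GCLM higher and HMOX1 and SRXN1 lower, and 22.9% of all genes, 10.8% higher and 12.1% lower. The groups did not overlap in CPM in 7 of 9 genes (56.2% of all genes), 5 above control (27.9%) and 2 below it (28.3%). The median log2 fold change of the 9 genes was 0.22, against 0.02 for all genes tested. With NRP-1 replicate 2 left out, 5 of the 9 passed (HMOX1, GCLC, SRXN1, TXN and PGD) and 36.8% of all genes did. With NRP-1 replicate 3 left out, 4 passed (HMOX1, SRXN1, TXNRD1 and TXN) and 28.2% of all genes did. In both of those fits the spread came from the control pair alone and the lone NRP-1 library was assumed to vary like it. The median over the 9 genes was then 0.06 and 0.12.

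NFE2L2 (Gene ID 4780) had 540 and 600 reads in control replicates 1 and 2 and 568 and 579 reads in NRP-1 replicates 2 and 3. Both NRP-1 values lay between the controls. Its level was 24.3 ± 1.81 FPKM in control and 23.9 ± 0.184 FPKM in NRP-1 cells (SD, n = 2), and the fold was 0.966 with a 95% interval of 0.781 to 1.20 (edgeR adjusted p = 0.846).

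NQO1 (Gene ID 1728) encodes a quinone reductase that is a much used reporter of NRF2 activity. It had 2425 and 2440 reads in control and 2419 and 2655 in NRP-1 replicates 2 and 3. The NRP-1 values lay on either side of the controls. The fold was 1.0 with an interval of 0.817 to 1.23 (edgeR adjusted p = 0.996), so a change larger than these bounds lay outside the interval, while a smaller one was not detectable with 2 libraries per group.

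HMOX1 (Gene ID 3162) encodes heme oxygenase-1, which breaks heme down to biliverdin, iron and carbon monoxide. It had 99 and 98 reads in control and 55 and 62 in NRP-1 replicates 2 and 3, and both NRP-1 libraries lay below both controls. The log2 fold change of -0.81 (SE 0.22, 95% interval -1.36 to -0.26) had an unadjusted p of 0.0111 and an adjusted p of 0.112 in edgeR, and 0.273 in DESeq2. It was the largest difference among the 9 genes and rested on the fewest reads. Leaving out any 1 library gave -0.90 to -0.74.

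Glutamate-cysteine ligase, the rate-limiting enzyme of glutathione synthesis, is made of a catalytic subunit (GCLC) and a modifier subunit (GCLM). GCLM (Gene ID 2730) had 189 and 202 reads in control and 267 in each NRP-1 library. These counts agreed after rounding, and both NRP-1 libraries were above both controls, with a log2 fold change of 0.39 (SE 0.15, adjusted p = 0.207 in edgeR). GCLC (Gene ID 2729) had 388 and 430 reads in control and 461 and 529 in NRP-1 replicates 2 and 3. The groups were apart, but the step from the higher control to the lower NRP-1 library was smaller than the gap within either pair. Its log2 fold change was 0.22 (SE 0.14, edgeR adjusted p = 0.418).

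TXN (Gene ID 7295) encodes thioredoxin, TXNRD1 (Gene ID 7296) the reductase that restores it with NADPH, and SRXN1 (Gene ID 140809) sulfiredoxin, which repairs overoxidised peroxiredoxins. TXN had 734 and 798 reads in control and 1124 and 1119 in NRP-1 replicates 2 and 3. The NRP-1 libraries were nearly equal and above both controls, at 107 ± 5.77 FPKM in control and 154 ± 1.24 FPKM in NRP-1 cells (SD, n = 2). The log2 fold change was 0.49 (SE 0.12, 95% interval 0.20 to 0.78, unadjusted p = 0.00594 and adjusted p = 0.0893 in edgeR), and DESeq2 gave an adjusted p of 0.109. TXN had the lowest p of the 9 genes, and leaving out any 1 library gave 0.44 to 0.54.

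TXNRD1 had 794 and 876 reads in control and 1186 and 911 in NRP-1 replicates 2 and 3. Only NRP-1 replicate 2 was clearly above the controls, and replicate 3 and control replicate 2 were both at 107 CPM. The log2 fold change was 0.27 (SE 0.16, edgeR adjusted p = 0.376), and leaving out NRP-1 replicate 2 gave 0.06, leaving out NRP-1 replicate 3 gave 0.45. SRXN1 had 637 and 591 reads in control and 393 and 491 in NRP-1 replicates 2 and 3. Both NRP-1 libraries were below both controls, and the log2 fold change was -0.53 (SE 0.16, unadjusted p = 0.0145 and adjusted p = 0.125 in edgeR). Leaving out NRP-1 replicate 2 gave -0.39, and leaving out NRP-1 replicate 3 gave -0.70. The 3 genes of this cycle thus did not share 1 direction.

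PGD (Gene ID 5226) encodes 6-phosphogluconate dehydrogenase, which makes NADPH in the pentose phosphate pathway. It had 1107 and 1098 reads in control and 1314 and 1576 in NRP-1 replicates 2 and 3. Both NRP-1 libraries were above both controls and differed from each other more than the controls did. The log2 fold change was 0.33 (SE 0.14, unadjusted p = 0.0502 and adjusted p = 0.219 in edgeR), and leaving out NRP-1 replicate 2 gave 0.45, leaving out NRP-1 replicate 3 gave 0.20. The deposited counts of NQO1 and GCLM were not whole in any library, to a tolerance of 0.001, so their estimates may include reads divided among loci, whereas the counts of the other 7 were whole.

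**Figure D2:**
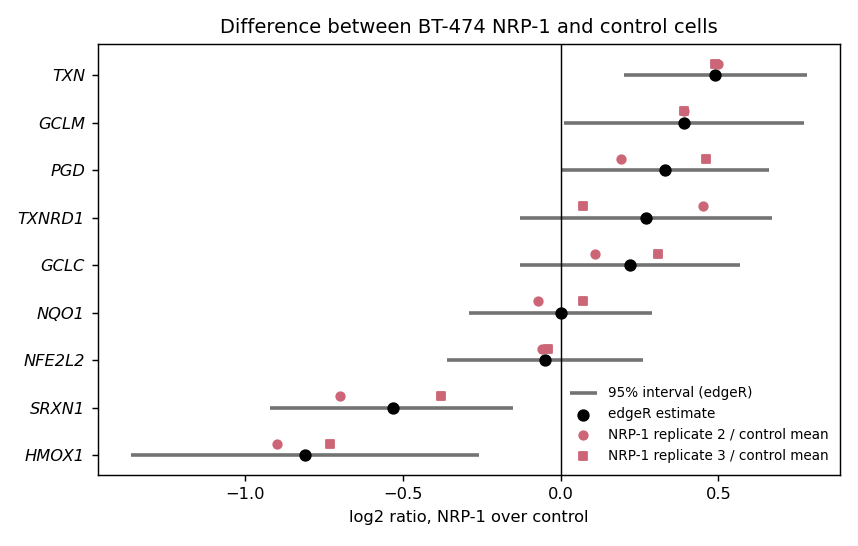
Log2 ratio of NRP-1 over control for the 9 genes, with the edgeR estimate (black point), its 95% interval (bar), and the ratio of each NRP-1 library to the control mean (circle, replicate 2, and square, replicate 3). TXN and GCLM lie to the right with both libraries together, HMOX1 and SRXN1 to the left, and NFE2L2 and NQO1 at the line of no difference.

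The windows shown above can be set beside these values. The 3 genes whose windows held the core letters, GCLM, TXNRD1 and PGD, had log2 fold changes of 0.39, 0.27 and 0.33, with adjusted p of 0.207 to 0.376 in edgeR. Of the 5 whose windows did not, TXN and GCLC were at 0.49 and 0.22, NQO1 at 0.00, NFE2L2 at -0.05 and SRXN1 at -0.53. The 9 genes together took 0.0839% and 0.0859% of the control reads, and 0.0928% and 0.0969% of those in NRP-1 replicates 2 and 3.

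The pattern of NFE2L2 over the 4 libraries, as centred log2 CPM, was compared by Euclidean distance over 14122 genes. The nearest were ISCA2, FRAT2, ANKEF1, RWDD1 and TOR4A, at distances of 0.022 to 0.0349. Of the 8 targets, NQO1 was nearest (distance 0.13, rank 511) and HMOX1 farthest (0.74, rank 11063). With 4 libraries such nearness describes a flat pattern with a slightly higher control replicate 2.

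A further 104 genes were taken from lists by role in NRF2 control, redox, detoxification, heme, iron or NADPH handling. They are called other pathway genes here, and the lists were not limited to NRF2 targets. The lists were chosen with earlier results of these data known. Shares set against all genes therefore describe the lists and are no test. Of the 104 genes, 102 were listed and 95 were tested. Among the tested genes named below, the counts of MAFF, SLC7A11, GSR, CTH, PRDX1, AKR1B10, GSTM2 and GSTM3 were not whole in any library. Those of BACH1 and FTH1 were whole in 1 of 4 libraries, and those of SLC3A2 in 2 of 4. Their estimates may include reads divided among loci and are uncertain. SLC3A2 alone fell by edgeR, 1 of 95 against 1.09% of all genes. At an unadjusted p under 0.05 there were 32 of 95 (33.7%), 12 higher and 20 lower, against 22.9% of all genes. DESeq2 called 15 of 95 (15.8%), 5 higher and 10 lower, against 6.24% of all genes, 2.62% higher and 3.62% lower. The groups did not overlap in 60 of 95, against 56.2%, and the median log2 fold change was -0.01.

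**Figure D3:**
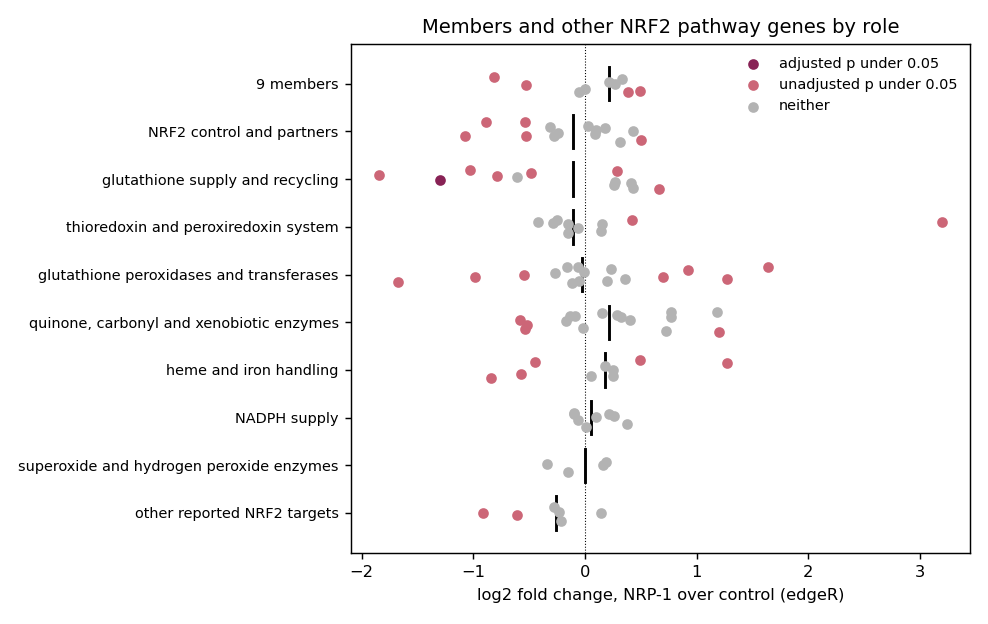
Log2 fold change (edgeR, NRP-1 over control) of the 9 genes and of 95 other tested pathway genes by role, with 1 point per gene, the median of each role as a vertical bar, and colour for the adjusted and unadjusted p. The 1 dark point is SLC3A2 at -1.30, and the point far to the right is TXNIP at 3.20.

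Among the controllers of NRF2, 0 of 14 passed by edgeR adjusted p, and 5 passed unadjusted (35.7%, against 22.9% of all genes), 1 higher and 4 lower. KEAP1, the adaptor that directs NRF2 to degradation, had 417 and 448 reads in control and 580 and 692 in NRP-1 replicates 2 and 3. Both NRP-1 libraries were above both controls, at a log2 fold change of 0.50 (SE 0.14, adjusted p = 0.122 in edgeR and 0.191 in DESeq2). NFE2L1, the related factor NRF1, had 3749 and 3787 reads in control and 2473 and 1767 in NRP-1 cells. Its groups were far apart, at -0.89 (SE 0.18, adjusted p = 0.0731 in edgeR and 0.00121 in DESeq2). BACH1, which represses HMOX1, was at -0.53 (edgeR adjusted p = 0.126), and MAFF, a small MAF partner, at -1.07 (edgeR adjusted p = 0.184) with 319 and 391 reads against 249 and 103. SYVN1, a ubiquitin ligase of the endoplasmic reticulum, was at -0.54 (edgeR adjusted p = 0.174). SQSTM1, which binds KEAP1 and had the highest level of the list at 178 FPKM, was at -0.24 (edgeR adjusted p = 0.414).

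In glutathione supply, 1 of 12 genes passed by edgeR adjusted p (1.09% of all genes), and 7 passed unadjusted (58.3%, against 22.9% of all genes), 2 higher and 5 lower. SLC3A2, the heavy chain that carries cystine and amino acid transporters to the cell surface, had 4466 and 4540 reads in control and 1850 and 1967 in NRP-1 replicates 2 and 3. Both NRP-1 libraries were below both controls and close to each other, and the gene fell by 1.30 on the log2 scale (SE 0.12, adjusted p = 0.0345 in edgeR and 9.03e-12 in DESeq2). Its counts were whole in only 2 of 4 libraries, so its estimate is uncertain. Its adjusted p was 0.106 without the filter on low counts and 0.0783 to 0.126 with limma on log2 FPKM. The call was also lost without control replicate 1 (adjusted p = 0.802) and without control replicate 2 (0.611), where no gene was called by edgeR. SLC7A11, the cystine-carrying light chain and a known NRF2 target, had 194 and 314 reads in control and 172 and 174 in NRP-1 cells, at -0.61 (SE 0.25, edgeR adjusted p = 0.223). CHAC1, which cleaves glutathione, had 189 and 172 reads against 34 and 71, at -1.84 (adjusted p = 0.068 in edgeR and 5.29e-04 in DESeq2). GLRX, glutaredoxin, was at -1.03 (edgeR adjusted p = 0.0821). GSR, which regenerates reduced glutathione, was at 0.29 (edgeR adjusted p = 0.213), and GGCT, the most abundant of the list at 214 FPKM, at 0.66 (edgeR adjusted p = 0.145).

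In the thioredoxin and peroxiredoxin system, 0 of 10 passed by edgeR adjusted p, and 2 were higher unadjusted, TXNIP and PRDX2 (20%, against 22.9% of all genes in either direction). TXNIP, which binds and inhibits thioredoxin, had 183 and 165 reads in control and 692 and 2640 in NRP-1 replicates 2 and 3. Both NRP-1 libraries were far above control and differed widely from each other. The log2 fold change was 3.20 (SE 0.62, adjusted p = 0.068 in edgeR and 0.00914 in DESeq2), and leaving out NRP-1 replicate 2 gave 3.85, leaving out NRP-1 replicate 3 gave 1.93. PRDX2, a cytosolic peroxiredoxin, was at 0.42 (edgeR adjusted p = 0.142). PRDX1, an NRF2 target with the highest level of the list at 354 FPKM, was at -0.15 (edgeR adjusted p = 0.492).

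**Figure D4:**
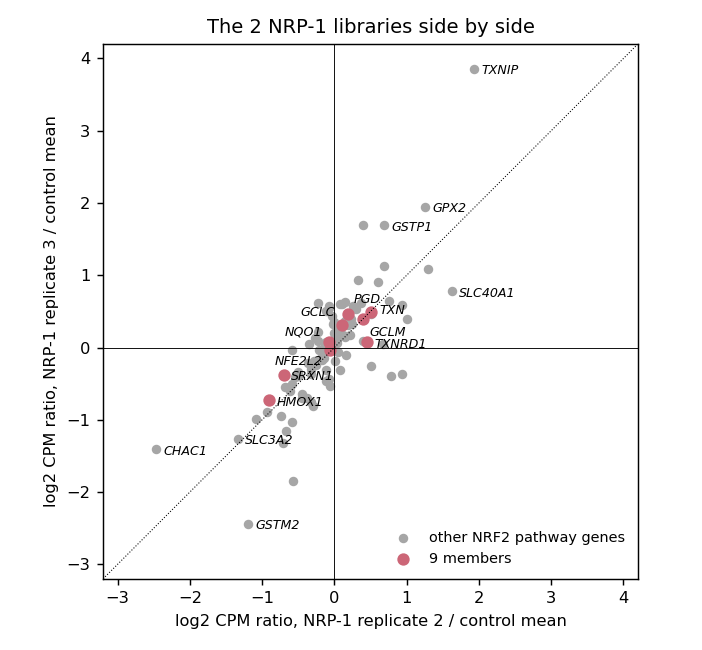
Log2 ratio of CPM to the control mean in NRP-1 replicate 2 (horizontal axis) and NRP-1 replicate 3 (vertical axis), with the 9 genes in colour, other tested pathway genes in grey and equality as a dotted line. The 9 genes lie close to the line, whereas TXNIP, at 1.93 and 3.86, lies far above it. Both axes share the control mean, so the slope of the cloud is no test.

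Between the NRP-1 libraries, the median absolute log2 difference was 0.17 over the 9 genes and 0.29 over all genes tested. Between the controls it was 0.10 and 0.14.

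Among glutathione peroxidases and transferases, 0 of 16 tested genes passed by edgeR adjusted p. At an unadjusted p under 0.05, 4 were higher and 3 lower (43.8% together, against 22.9% of all genes). GPX2, a glutathione peroxidase of epithelia and an NRF2 target, had 36 and 52 reads in control and 109 and 177 in NRP-1 replicates 2 and 3, at 1.64 (SE 0.33, adjusted p = 0.0728 in edgeR and 0.00509 in DESeq2). GSTP1 was at 1.27 (edgeR adjusted p = 0.167) with at most 64 reads in any library. GSTM2 was at -1.67 (edgeR adjusted p = 0.118) and GSTM3 at 0.92 (adjusted p = 0.068 in edgeR and 0.00189 in DESeq2), and the counts of both were not whole in any library, so these estimates are uncertain. No direction was shared across this list.

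Among quinone, carbonyl and xenobiotic enzymes, 0 of 16 tested genes passed by edgeR adjusted p, with 1 higher and 3 lower unadjusted (25.0% together, against 22.9% of all genes). ABCC2, an export pump for glutathione conjugates, had 94 and 79 reads in control and 222 and 192 in NRP-1 replicates 2 and 3. The groups were apart, at 1.20 (SE 0.21, adjusted p = 0.0587 in edgeR and 0.00719 in DESeq2). EPHX1, epoxide hydrolase and the most abundant of the list at 93.9 FPKM, was at -0.54 (adjusted p = 0.0761 in edgeR and 0.0489 in DESeq2). AKR1B10 was at 0.77 (edgeR adjusted p = 0.241) and ALDH3A1 at 1.18 (edgeR adjusted p = 0.333), the latter with 5 to 27 reads. AKR1C1, AKR1C2 and AKR1C3, which are known NRF2 targets, had 2 to 14 reads in any library and were not tested.

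In heme and iron handling, 0 of 9 passed by edgeR adjusted p, and 5 did unadjusted (55.6%, against 22.9% of all genes), 2 higher (10.8% of all genes) and 3 lower (12.1%). FTH1, the ferritin heavy chain, had 39394 and 35010 reads in control and 23280 and 20075 in NRP-1 replicates 2 and 3. Both NRP-1 libraries were below both controls, at -0.84 (SE 0.16, adjusted p = 0.066 in edgeR and 1.84e-04 in DESeq2), and its counts were whole in only 1 of 4 libraries, so its estimate is uncertain. FTL, the ferritin light chain, was at -0.57 (adjusted p = 0.113 in edgeR and 0.0454 in DESeq2). SLC40A1, the iron exporter ferroportin, was at 1.27 (adjusted p = 0.0957 in edgeR and 0.00828 in DESeq2) with 114 and 150 reads against 426 and 236. TFRC, the transferrin receptor, had 3062 and 2977 reads in control and 4473 and 4352 in NRP-1 cells, at 0.49 (SE 0.12, adjusted p = 0.0893 in edgeR and 0.0518 in DESeq2). Ferritin and HMOX1 were thus at lower values and the iron importer and exporter at higher values in both NRP-1 libraries. None of these genes was called by edgeR, and TFRC was named after its values were seen. In CPM the groups did not overlap in 7 of the 9 genes of this list, 4 higher and 3 lower. Over all genes this share was 56.2%, with 27.9% higher and 28.3% lower.

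In NADPH supply, 0 of 8 genes passed, adjusted or unadjusted, and the median log2 fold change was 0.06. ME1, malic enzyme, was at 0.26 (edgeR adjusted p = 0.432), and IDH1, the most abundant of the list at 143 FPKM, at -0.10 (edgeR adjusted p = 0.754). In the superoxide and hydrogen peroxide enzymes, 0 of 4 passed, adjusted or unadjusted, with log2 fold changes from -0.34 for SOD3 to 0.19 for SOD1. Of 6 other reported NRF2 targets, 0 passed by edgeR adjusted p and 2 were lower unadjusted (33.3%, against 12.1% of all genes). These were OSGIN1, an oxidative stress induced growth inhibitor, at -0.91 (SE 0.17, adjusted p = 0.068 in edgeR and 0.0339 in DESeq2), and CABYR at -0.61 (edgeR adjusted p = 0.213).

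For a single gene, 2 libraries against 2 allow no two-sided p below 0.33 in an exact permutation test, so the p-values above rest on the spread pooled across genes. In bulk RNA, fewer cells with a transcript and less of it per cell cannot be told apart.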

How the data were processed

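The authors sequenced poly(A) RNA of 4 BT-474 libraries. The submitters' processing notes name bcl2fastq 2.16, HISAT2 2.0.1, Bowtie2 2.2.5 and RSEM, and 2 genome builds without their roles, so no coordinates are given for expression values. The deposited per-library files hold gene length, expected counts that the authors estimated per gene, and the authors' FPKM. A deposited comparison table with the authors' fold changes and a probability score was not used. Gene symbols matched 99.36% of IDs.

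After rounding to whole numbers, these counts were compared in edgeR 4.0.16 (quasi-likelihood, TMM, filterByExpr, R 4.3.3) over 14298 genes. The fit was also run on simulated data with a log2 change of 2 and the same spread in both groups. In these libraries the NRP-1 pair was more spread, so that run does not bear on this spread or on smaller changes. Alternatives were DESeq2 1.42.0, its size factors in edgeR, no TMM, no filter, limma 3.58.1 on log2(FPKM + 1) or log2(FPKM + 0.1), a stricter threshold (adjusted p of at most 0.001 and log2 fold change of at least 2), and leaving out each library. Promoter windows were RefSeq GRCh38.p14.

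The members and lists were chosen with earlier results of these data known. Named were the 9 members, NRP1, genes with adjusted p under 0.05, the 3 largest changes and the most abundant genes of each list, and the 5 genes most like NFE2L2. KEAP1, BACH1, SLC7A11, GSR, GSTM3, TFRC, AKR1C1, AKR1C2, AKR1C3 and the cell type markers named were chosen after their values were seen. Some genes that this rule names are not reported here. Protein measurements were not analysed here.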

Additional observations from a re-analysis of the deposited data

How the results depend on the processing

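Among all genes the count of 156 was 893 with DESeq2, 163 with its size factors in edgeR, 154 without TMM, 7 and 3 with limma on log2(FPKM + 1) and log2(FPKM + 0.1), 0 with limma without a filter (3463 at an unadjusted p under 0.05), 0 in edgeR without a filter (3297 unadjusted) and 0 at the stricter threshold. Leaving out 1 library gave 0 to 5414: 0 without either control (782 and 1181 unadjusted), 5414 on leaving out NRP-1 replicate 2 and 4159 on leaving out replicate 3 of that group. The count among the 9 NRF2 genes was 0 under each of these except on leaving out a library, where it was 0 to 5. The 1 other pathway gene became 15 with DESeq2, 0 with no filter, with each limma setting and at the stricter threshold, and 0 to 49 on leaving out a library. The median log2 fold change of the 9 genes, 0.22, was 0.06 to 0.28 on leaving out a library and 0.21 to 0.25 otherwise. The cause of these shifts was not tested, but with 1 control left out the spread comes from the NRP-1 pair, and with 1 NRP-1 library left out from the control pair.

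Leaving out a library turned the sign of 22 of the 95 other pathway genes tested, none of them called by edgeR, the largest being CTH (0.43, range -0.38 to 0.94). NFE2L2 ranged from -0.12 to 0.02 on leaving out a library (0.02 without control replicate 2) and NQO1 from -0.07 to 0.06 (-0.07 without NRP-1 replicate 3, 0.00 without control replicate 2), with 0.00 under DESeq2 size factors. RPIA (0.22, range -0.03 to 0.42) and SOD2 (0.16, range -0.02 to 0.32) turned without NRP-1 replicate 3. Of the 36 values of the 9 genes with a library left out, 24 kept direction and side and 9 came to pass the threshold. Of 63 under the other alternatives, 62 kept both. No paired analysis was possible because the groups share only replicate number 2.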
